A study of Mus musculus with 2 samples.

Results

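Replication-dependent histone genes encode the bulk histones that package DNA as it is copied. The set described here holds every gene whose GENCODE symbol on the mouse assembly mm10 begins with Hist1h, Hist2h, Hist3h or Hist4. That rule found 70 genes among 55450 annotated genes, 67 of them protein-coding and 3 pseudogenes. By histone type there were 6 genes of the linker histone H1, 20 of H2A, 19 of H2B, 12 of H3 and 13 of H4. The data are DNase-seq, in which nuclei are treated with DNase I and the cut ends of accessible DNA are sequenced. The material was liver of mouse embryos of strain B6NCrl at embryonic day 11.5, pooled over males and females. Both libraries, technical replicate 7 and technical replicate 1, came from 1 biological sample. There was no second group, so nothing was compared between conditions and no p-value was computed. Differences between the libraries show technical spread only.

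These genes are transcribed mainly in S phase, when new DNA needs new nucleosomes. Their messenger RNAs end in a conserved stem-loop in place of a poly(A) tail, and most have no intron. The clustered genes are expressed at a nuclear compartment, the histone locus body, which gathers the coactivator NPAT and the factors that process histone transcripts. H2A and H2B genes often lie head to head and share the sequence between their starts. Embryonic liver at this stage is a site of blood formation, and its erythroid precursors divide rapidly.

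A search of each gene and the 200 bases after it found the histone stem-loop consensus with at most 1 mismatch in 64 of 70 genes, and without mismatch in 59. The match had 2 mismatches in 3 further genes. No match that close was found in Hist2h2be or in the pseudogenes Hist1h2aj and Hist1h2al. An annotation of 1 exon applied to 65 of the 70 genes, and the median gene length was 532 bp. With neighbours joined where the gap was at most 200 kb, the genes formed 6 blocks. The Hist2 block lay at chr3:96219865-96270132 and held 10 genes, and Hist3 at chr11:58948920-58956830 held 3. Hist4h4 stood alone at chr6:136801553-136804415. The first Hist1 block, chr13:21715763-22043676, held 24 genes over 327.9 kb, and the second Hist1 block, chr13:23531050-23934851, held 31 genes over 403.8 kb. The pseudogene Hist1h2al lay by itself at chr13:51202727-51203065.

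Promoter sequences were taken from RefSeq (GRCm38.p6), which had an entry on the same strand for 61 of the 70 genes. The 10 promoters below carry the patterns that the results turn on: 3 strong H4 promoters, an H2A and an H2B promoter, 1 each of H3 and H1, and 3 with no peak at their start. Each line gives the 200 bases before the RefSeq start, 5′ to 3′ on the strand of the gene. Capitals mark the searched letters on either strand: TATAAA (the TATA box), CCAAT (bound by NF-Y), ATTTGCAT (the octamer bound by POU2F1), AAACACA (the H1 box) and GGTCC (in the core element of H4 promoters). None of these motifs contains another.
Hist1h4a, chr13:23761250-23761449, minus strand: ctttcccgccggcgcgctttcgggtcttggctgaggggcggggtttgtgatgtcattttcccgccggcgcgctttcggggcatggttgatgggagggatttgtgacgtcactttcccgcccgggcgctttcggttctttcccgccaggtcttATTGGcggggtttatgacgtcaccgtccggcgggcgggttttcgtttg
Hist1h4c, chr13:23698459-23698658, minus strand: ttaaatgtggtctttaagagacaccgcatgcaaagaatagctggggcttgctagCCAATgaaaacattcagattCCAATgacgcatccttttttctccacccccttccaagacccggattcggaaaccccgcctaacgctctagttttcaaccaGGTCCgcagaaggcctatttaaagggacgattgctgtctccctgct
Hist1h4d, chr13:23581368-23581567, plus strand: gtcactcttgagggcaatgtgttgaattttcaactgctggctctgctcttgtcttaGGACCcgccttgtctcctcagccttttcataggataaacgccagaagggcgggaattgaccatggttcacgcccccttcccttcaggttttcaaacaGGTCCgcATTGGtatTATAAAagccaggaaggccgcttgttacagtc
Hist1h2ag, chr13:22042950-22043149, minus strand: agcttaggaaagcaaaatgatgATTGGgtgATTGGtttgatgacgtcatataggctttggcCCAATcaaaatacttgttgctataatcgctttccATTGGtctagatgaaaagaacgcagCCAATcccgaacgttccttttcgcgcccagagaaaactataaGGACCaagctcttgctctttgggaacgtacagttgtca
Hist2h2bb, chr3:96269500-96269699, plus strand: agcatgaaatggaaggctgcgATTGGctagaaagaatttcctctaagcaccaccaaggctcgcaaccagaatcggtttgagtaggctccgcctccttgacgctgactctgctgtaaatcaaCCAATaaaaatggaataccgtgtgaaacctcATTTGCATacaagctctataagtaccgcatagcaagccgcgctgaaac
Hist1h3g, chr13:23535218-23535417, plus strand: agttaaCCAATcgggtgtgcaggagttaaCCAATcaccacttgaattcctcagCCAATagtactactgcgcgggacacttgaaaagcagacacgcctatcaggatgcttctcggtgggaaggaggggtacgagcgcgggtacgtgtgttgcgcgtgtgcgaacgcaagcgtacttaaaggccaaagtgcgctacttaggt
Hist1h1c, chr13:23738607-23738806, plus strand: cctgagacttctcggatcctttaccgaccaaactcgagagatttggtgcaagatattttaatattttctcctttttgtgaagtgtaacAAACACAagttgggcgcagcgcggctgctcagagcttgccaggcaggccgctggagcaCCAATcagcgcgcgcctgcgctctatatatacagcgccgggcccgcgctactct
Hist1h1t, chr13:23695611-23695810, plus strand: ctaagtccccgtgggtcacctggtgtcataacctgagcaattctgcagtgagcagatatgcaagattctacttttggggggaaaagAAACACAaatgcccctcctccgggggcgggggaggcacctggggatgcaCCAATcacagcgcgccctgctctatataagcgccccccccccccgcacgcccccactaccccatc
Hist1h2aa, chr13:23934237-23934436, plus strand: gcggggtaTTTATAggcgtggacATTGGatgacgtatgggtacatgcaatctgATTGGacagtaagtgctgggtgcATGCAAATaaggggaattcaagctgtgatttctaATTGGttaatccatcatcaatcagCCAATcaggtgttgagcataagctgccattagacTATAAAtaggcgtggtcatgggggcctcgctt
Hist1h2br, chr13:21833543-21833742, plus strand: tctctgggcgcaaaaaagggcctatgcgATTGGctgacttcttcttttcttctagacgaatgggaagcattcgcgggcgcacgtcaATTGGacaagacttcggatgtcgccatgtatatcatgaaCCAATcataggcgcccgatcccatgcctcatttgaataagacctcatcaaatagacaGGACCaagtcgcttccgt

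The motifs divided the genes by histone type. In the window from 250 bases before to 50 after the start, CCAAT occurred in all 6 H1, 17 H2A, 16 H2B and 10 H3 promoters with an entry. It occurred in 3 of 12 H4 promoters, and in 37.4% of all 32851 RefSeq promoters. GGTCC went the other way: 11 of 12 H4 promoters held it, as did 15 of the other 49, against 45.5% of all promoters. The one H4 promoter without it was that of Hist1h4a. The octamer was found in 7 H2A and 6 H2B promoters and in none of the other types, against 1.74% of all promoters. Its letters ran along the gene at each H2B start and against it at each H2A start, and the 13 occurrences came from 10 distinct sites because paired genes share sequence. The H1 box was found in 5 of 6 H1 promoters, with its first base at -122 to -112 from the start, and in 4 H2A or H2B promoters. Hist1h1a was the H1 gene without it. The share over all promoters was 7.18%. TATAAA occurred in 35 of 61 member promoters against 13.6% of all promoters, and 16 genes carried it along the gene between 45 and 15 bases before the start. By type it was found in 4 of 6 H1, 11 of 17 H2A, 8 of 16 H2B, 4 of 10 H3 and 8 of 12 H4 promoters. The promoters had a median GC content of 45.3% and a median CpG ratio (observed over expected) of 0.746, against 52.7% and 0.384 over all promoters.

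**Figure D1:**
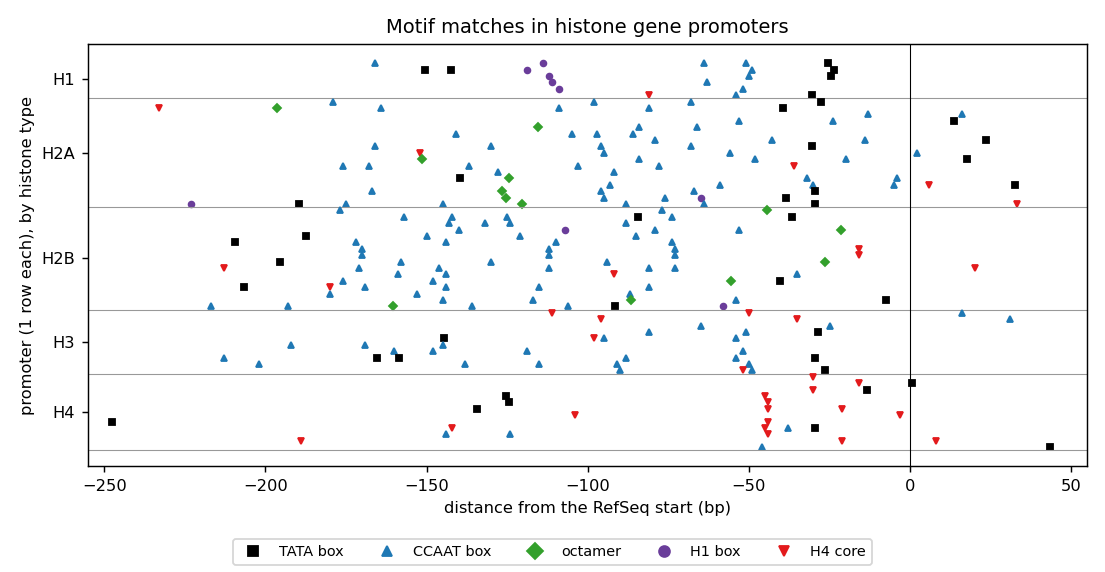
Positions of the 5 searched motifs in 61 promoters, 1 row a promoter, grouped by histone type; the horizontal axis is the distance from the RefSeq start in bp. H1, H2A, H2B and H3 promoters all hold CCAAT, 3 of 12 H4 promoters do, and GGTCC gathers just before H4 starts.

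Most of these promoters were open. A peak is a short region of locally highest cutting, listed by the authors for each library, and its density is the highest density of DNase cuts in it, on a scale the headers do not state. A peak lay within 1 kb of a start in both libraries for 47 of 70 genes, or 67.1% (exact Clopper-Pearson 95% interval 54.9 to 77.9, counting error only). The share among 21938 protein-coding genes was 59.4%, inside that interval. Technical replicate 7 listed a peak for 60 of 70 genes, 85.7% (75.3 to 92.9), against 65.3% of protein-coding genes. Technical replicate 1 listed one for 48, 68.6% (56.4 to 79.1), against 59.9%. Neighbouring genes share windows here, so the 70 genes are not independent: 45 of the 126 distinct peaks of technical replicate 7 lay in the windows of more than 1 gene, as did 21 of the 56 of technical replicate 1. Hotspots, the broader regions of raised cutting, lay within 1 kb of a start in both libraries for 57 genes, 81.4% (70.3 to 89.7), against 64.5% of protein-coding genes.

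Where a peak sat at the start itself, it was a strong one in technical replicate 7. Peaks with a summit within 250 bp of a start were listed for 55 genes there, with densities from 1.03 to 5.59 and a median of 3.27, where the median peak of the list had 0.625. The rank of a peak is the percentage of its library's peaks at or below its density; the median rank of those 55 was 93.1. In technical replicate 1, 40 genes had such a peak, with densities from 0.566 to 6.65, a median of 2.03 against 1.26 for the list, and a median rank of 73.4. Over all protein-coding genes with a peak within 1 kb, the strongest had median ranks of 91.0 and 82.7. The same quantity for the histone genes was 93.1 and 74.1. So they stood slightly above the protein-coding median in one library and below it in the other.

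H4 promoters, whose genes encode the histone paired with H3, ranked high in both libraries. Of 13 H4 genes, 11 had a peak at the start in each library; the other two, Hist1h4m and Hist1h4n, are treated below with the copied genes. Ranks ran from 90.3 to 98.9 in technical replicate 7 and from 85.4 to 99.9 in technical replicate 1. Hist1h4a had the strongest peak of the set in each library, with a density of 5.59 in technical replicate 7 and 6.65 in technical replicate 1. Hist1h4c followed by mean rank, with densities of 4.02 and 4.91. Hist1h4d had 4.69 and 4.22. Hist4h4, the lone gene on chromosome 6, had 2.84 and 3.30, ranks of 91.4 and 89.0, so a gene far from any cluster lay within the range of the clustered H4 genes.

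H2A and H2B promoters matched H4 in one library and not in the other. In technical replicate 7 the median rank of peaks at the start was 93.1 for 15 H2A genes and 93.6 for 16 H2B genes, beside 93.7 for H4. In technical replicate 1 it was 69.5 for 12 H2A genes and 69.1 for 8 H2B genes, beside 95.5 for H4. The highest H2A or H2B rank there, 80.3, lay below the lowest H4 rank, 85.4. In technical replicate 7 the ranges overlapped and 23 of 31 H2A and H2B ranks exceeded the lowest H4 rank. These ranks are counted by gene: in 11 pairs the H2A and H2B gene took the same peak of technical replicate 7. The H2A and H2B medians there are therefore not independent. Among H2A genes, Hist2h2ac had densities at the start of 3.59 and 1.99 in technical replicates 7 and 1, Hist3h2a 4.47 and 2.04, and Hist1h2an 4.19 and 1.94. Among H2B genes, Hist2h2bb had 4.12 and 2.49. In technical replicate 7 Hist2h2be shares the peak of Hist2h2ac, and the pseudogene Hist3h2bb-ps that of Hist3h2a. Both had peaks of their own in technical replicate 1, with densities of 2.21 and 1.82. Hist3h2ba, the other H2B gene on chromosome 11, was weaker in both libraries, at 1.20 and 1.24.

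H3 and H1 medians lay between those of H2A or H2B and H4 in technical replicate 1, and below all of these in technical replicate 7. For H3, 9 of 12 genes had a peak at the start in technical replicate 7, with a median rank of 90.2, and 5 in technical replicate 1, with a median of 73.2. For H1, 4 of 6 genes had one in each library, with median ranks of 92.9 and 87.8. Hist1h3g had densities of 4.19 and 3.12 and Hist1h3e 3.95 and 2.96. Hist1h3a came first among H3 genes by the strongest peak within 1 kb, but that peak is the one at Hist1h4a, with its summit 1059 bp past the Hist1h3a start in technical replicate 7. The peak at the Hist1h3a start had a density of 1.34 in technical replicate 7, and none was listed there in technical replicate 1. Of the linker histone genes, Hist1h1c had densities of 3.63 and 3.76, Hist1h1a 3.97 and 3.06, and Hist1h1e 2.86 and 3.30. In technical replicate 1 the Hist1h1c value belongs to a peak 880 bp downstream, and the peak at its start had 3.43.

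**Figure D2:**
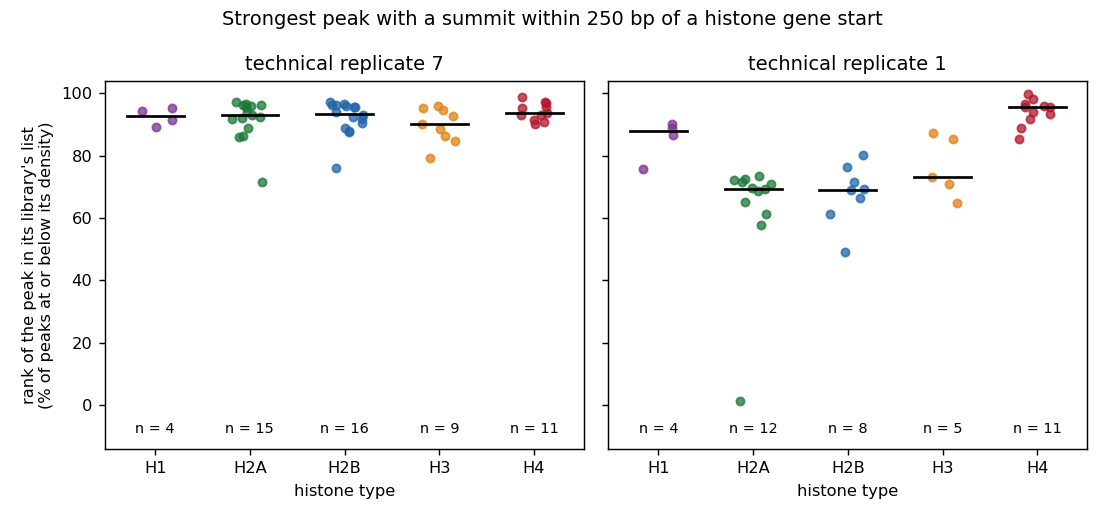
Rank of the strongest peak with its summit within 250 bp of the start, in percent of the library's list, for each gene with such a peak; panels are libraries, points genes and bars medians. H4 ranks stay at or above 85.4 in both libraries, while the H2A and H2B medians fall from 93.1 and 93.6 in technical replicate 7 to 69.5 and 69.1 in technical replicate 1. A peak shared by paired genes is drawn for each of them.

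The libraries also differed in which genes had a listed peak. Of the 70 genes 85.7% had a peak in technical replicate 7 and 67.1% in both libraries, against 65.3% and 59.4% of protein-coding genes. A peak in technical replicate 7 alone was found for 13 genes, 11 of them among the 31 genes of the second Hist1 block and none among the 24 of the first. Those 11 were Hist1h2af, Hist1h2bh, Hist1h3f, Hist1h2ae, Hist1h2bg, Hist1h2bf, Hist1h2ad, Hist1h3d, Hist1h2ac, Hist1h2bc and Hist1h1t. The pair Hist1h2bf and Hist1h2ad had the strongest H2A and H2B peak of technical replicate 7, at 4.63, and no peak in the list of technical replicate 1. Hotspots of technical replicate 1 did lie over the starts of both genes and of Hist1h2af, Hist1h2bh, Hist1h2ac and Hist1h2bc. One lay within 1 kb of the Hist1h3f start, and none within 1 kb of the starts of Hist1h2ae, Hist1h2bg, Hist1h3d or Hist1h1t. Another deposited peak list of technical replicate 1, from a different processing, held a peak within 1 kb of 10 of these 11 genes, all but Hist1h2af; at Hist1h2bf and Hist1h2ad it ranked at 80.6 within that list of 62288 peaks. With that list in place of the one used, 57 of 70 genes had a peak in both libraries, against 60.9% of protein-coding genes. That list is also longer than the one used, which held 42422 peaks, and the parts of its length and of its processing were not tested. The smallest step between densities, a sign of depth if they are scaled to the total of cuts, was 2.52 times larger in technical replicate 1, and its part in the absences was not tested.

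Head-to-head H2A and H2B genes had 1 peak over their shared sequence in technical replicate 7 and 1 or 2 in technical replicate 1. There were 14 such pairs, with 173 to 306 bp between the starts and a median of 247 bp. Of the 12 whose promoters are not copied elsewhere, 11 had a peak over the shared sequence in technical replicate 7, with densities from 2.32 to 4.63 and a median of 4.07. Each of those 11 summits fell between the starts, and 6 of the peaks covered both starts. In technical replicate 1, 8 pairs had a peak, with densities from 1.43 to 2.21; 4 of them had 2 peaks, and the strongest covered both starts at none. Only 4 of those 8 strongest summits lay between the starts; at Hist2h2ac and Hist2h2be, for example, the strongest summit lay 362 bp from the Hist2h2ac start, beyond the Hist2h2be start. Hist1h2bh and Hist1h3f form the one other divergent pair, with 660 bp between starts.

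**Figure D3:**
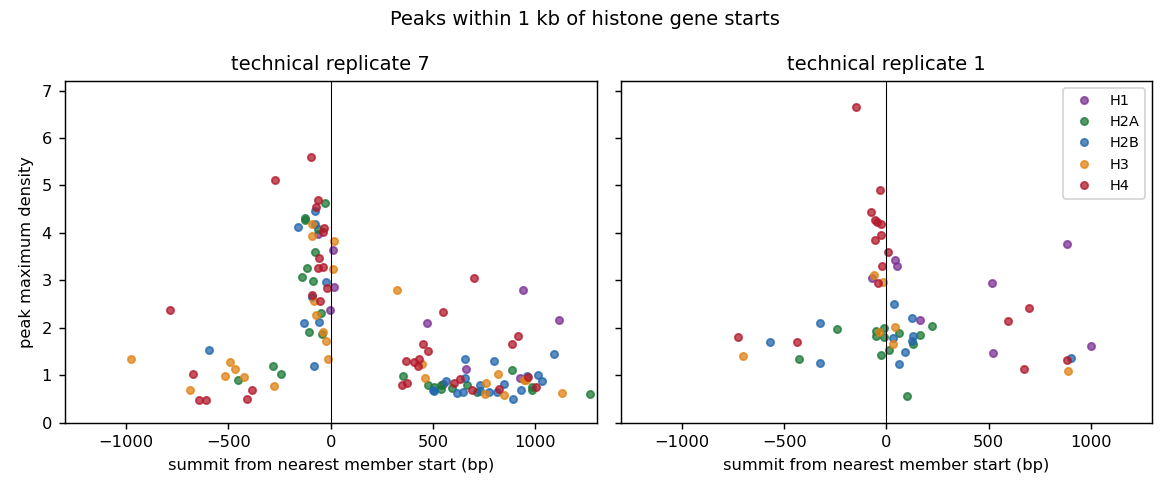
Density of every peak within 1 kb of a member start against the distance of its summit from the nearest member start in bp, negative upstream; colours are histone types and panels libraries. In technical replicate 7 the strong peaks stand in the 200 bp before the start and a band of mostly weak ones lies 200 to 1000 bp after it; in technical replicate 1 summits fall on both sides of the start.

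Median summit positions by histone type came in a different order in each library. Distances are from GENCODE starts, and RefSeq starts differ from these unequally by type. For Hist1h1b, Hist1h1e, Hist1h1c and Hist1h1a the RefSeq start lay at 0, 0, -1 and 2 bp from the GENCODE start. For H2A and H2B genes with a peak at the start it lay from -85 bp at Hist1h2ak to 30 bp at Hist1h2be. The part of these offsets in the order by type was not tested. Most H2A and H2B values of technical replicate 7 are the same summits, measured from both starts of 11 pairs. In technical replicate 7 the median summit at the start lay at -138 bp for H2B, -108 bp for H2A, -55 bp for H4, -38 bp for H3 and 4.5 bp for H1, negative values being upstream. In technical replicate 1 it lay at -41 bp for H4, -16 bp for H3, 0.5 bp for H2A, 50 bp for H2B and 48 bp for H1. The H4 and H3 medians were upstream in both libraries, and the H2A and H2B medians moved to the start or past it. By nearest member start, 39 of the 126 peaks of technical replicate 7 had summits in the 200 bp upstream, with a median density of 3.26. A further 58 lay more than 200 and up to 1000 bp downstream, 29 of them inside the annotated gene and 29 past its end, with median densities of 0.937 for the 23 nearer and 0.841 for the 35 farther ones. In technical replicate 1, 10 of 56 peaks lay in that downstream range. Over the 70 genes, a median of 48.6% of positions in the annotated gene began a run of 36 bases unique in the genome. The part of this share in where summits and peak edges fell, inside the gene or past its end, was not tested.

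**Figure D4:**
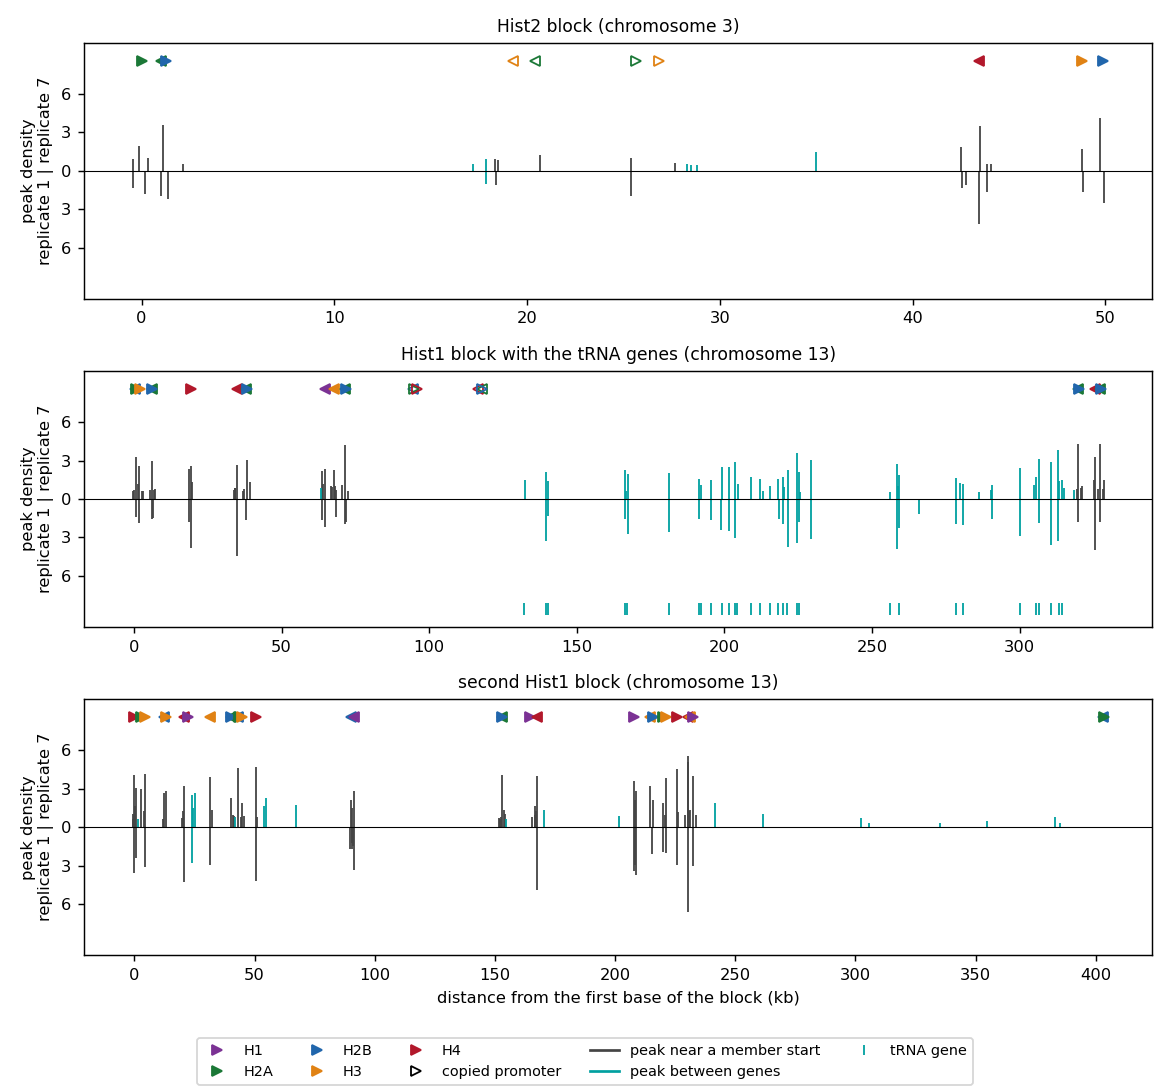
The Hist2 block and both Hist1 blocks drawn to scale, with distance from the first base of the block in kb; bars up are peak densities in technical replicate 7 and bars down in technical replicate 1. Triangles point along each gene, open where the promoter is copied, and ticks at the bottom mark tRNA genes, which lie under most of the peaks between genes of the first Hist1 block.

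Genes in copied sequence had no peak or densities of 1.97 at most. A promoter is called copied here where fewer than 50% of its 300 positions begin a run of 36 bases that occurs once in chromosomes 1 to 19, X and Y. That held for 10 genes, whose unique share was at most 25.7%; over the other 60 it was at least 64.7%, with a median of 100%. Hist1h2bq, Hist1h2ao, Hist1h4m, Hist1h4n, Hist1h2ap and Hist1h2br, a duplicated segment of the first Hist1 block, had no peak, hotspot or footprint within 1 kb in either library. The 200 bases before the start of Hist1h2br, printed above, are the same in Hist1h2bq at 200 of 200 positions. The remaining 4 form an inverted repeat in the Hist2 block. Hist2h2aa1 had densities of 1.03 and 1.97 in technical replicates 7 and 1, the latter above the H2A median of 1.84 in that library, and Hist2h3c2 had 0.901 and 1.10, from a peak over 800 bp away from its start. Hist2h2aa2 and Hist2h3c1 had a peak in technical replicate 7 alone, at 1.20 and 0.593. How the authors placed reads with several matching sites is not given in the sources used here, so closed chromatin and reads without a unique place cannot be told apart at these genes. Among the 60 genes with a unique promoter, 45 had a peak in both libraries (95% interval of the share 62.1 to 85.3%), against 59.4% of protein-coding genes, which were not restricted to unique promoters.

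**Figure D5:**
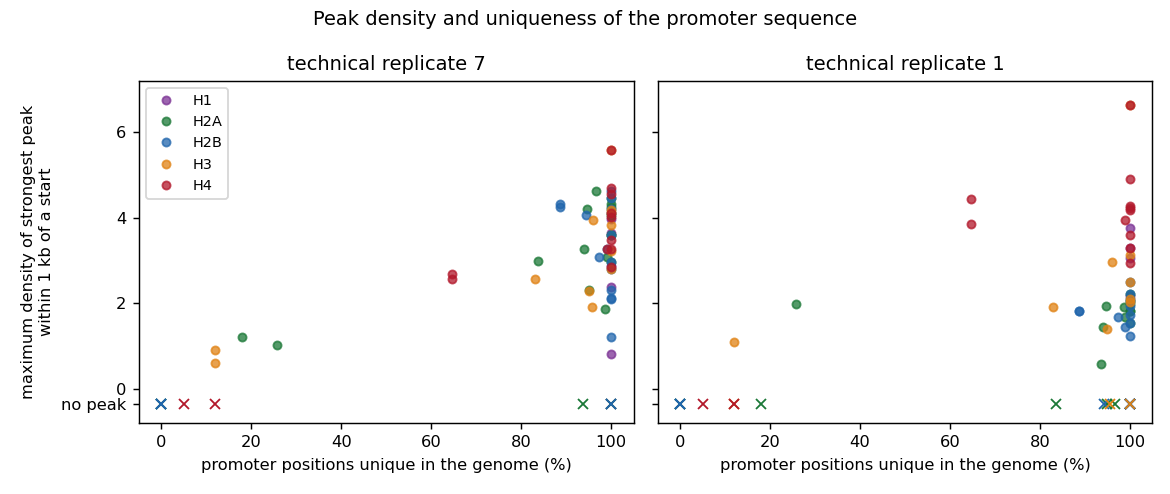
Density of the strongest peak within 1 kb of a start against the percentage of promoter positions that are unique in the genome, for 70 genes; crosses mark genes with no peak and panels are libraries. The 10 genes at 25.7% or less have densities up to 1.97 or no peak.

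Of the genes with unique promoters, 3 had no peak in either library. Hist1h2aa and Hist1h2ba, a head-to-head pair known for expression in the testis, also had no hotspot and no footprint within 1 kb. The Hist1h2aa sequence above holds CCAAT as well as TATAAA and the octamer, so the same letters stood in a promoter without a peak. Hist1h1t, the testis linker histone, had no peak at its start: technical replicate 7 listed one of 0.813 with its summit 547 bp downstream, and technical replicate 1 listed none. Like Hist1h1c, which had a strong peak, it holds the H1 box and CCAAT. The third gene, Hist1h1d, reflects the annotation. Its RefSeq start lies 1770 bp downstream of the GENCODE start, and both libraries had a peak over it, chr13:23554904-23555217 in technical replicate 7, with densities of 2.56 and 2.79. For 60 of the 61 genes with an entry the annotations' starts lay within 100 bp of each other. The pseudogene Hist1h2al had a peak in technical replicate 1 alone, of 0.566 and rank 1.44.

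Footprints are short stretches protected from cutting inside open regions. The lists of the libraries come from different processing, so their numbers are not compared. Technical replicate 7 listed a footprint within 1 kb of a start for 58 of 70 genes, 82.9% (72.0 to 90.8), against 60.4% of protein-coding genes. Technical replicate 1 listed one for 61, 87.1% (77.0 to 93.9), against 65.6%. GGTCC sites in H4 promoters often touched one. Of 14 such sites in 9 H4 promoters with unique sequence, 7 overlapped a footprint in technical replicate 7 and 11 in technical replicate 1, and 7 and 9 of the 9 genes had such a site. Among the 11 GGTCC occurrences of the other histone types the counts were 1 and 2. Some of these 11, such as that of Hist1h2aa, lay in promoters without a listed peak. Over all promoters with a peak in both libraries, 8.69% of GGTCC sites in technical replicate 7 and 21.4% in technical replicate 1 touched a footprint. Footprints covered 13.4% and 22.1% of the bases of the H4 promoters, more than of any other histone type in either library, and 10.05% and 7.81% of the H2A promoters.

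The other motifs gave smaller shares over all histone types, but not within the H4 promoters. The histone occurrences came from unique promoters with or without a listed peak. The shares over all promoters kept only those with a peak in both libraries, so the sets are unlike. TATAAA touched a footprint at 9 of 38 occurrences in technical replicate 7 and 10 in technical replicate 1, or 23.7% and 26.3%, against 12.8% and 18.0% over all promoters with peaks. CCAAT did so at 19 and 11 of 126 occurrences, or 15.1% and 8.73%, against 12.2% and 22.3%. Paired genes share sequence, so those 126 occurrences are 97 distinct sites, of which 14 and 8 touched a footprint. In H4 promoters the counts were 3 and 4 of 6 for TATAAA and 2 and 3 of 4 for CCAAT, shares like those of GGTCC on few sites. None of the 13 octamer and 9 H1 box occurrences touched a footprint in either library. Over all promoters with peaks the octamer shares were 7.34% and 18.6% and the H1 box shares 5.21% and 10.2%, so with so few occurrences a count of 0 is not set apart from them.

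Between the genes, the open regions of the first Hist1 block lay mainly at tRNA genes. The 6 blocks held 27 peaks shared by the libraries at over 1 kb from any member start, 25 of them in the first Hist1 block. RefSeq places 31 tRNA genes in that block and none in the others. All 31 had a peak within 100 bp in technical replicate 7 and 21 had one in technical replicate 1. Over the genome, 273 and 222 of 403 tRNA genes did. Of the 27 shared peaks, 21 were at tRNA genes, 2 at the starts of other genes (Zfp184 and Prss16), 1 at the RefSeq start of Hist1h1d, and 3 at none of these, that is over 100 bp from a tRNA gene and over 1 kb from a start. The tRNA peaks had median ranks of 84.5 and 77.6 in technical replicates 7 and 1.

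The first 5 shared regions between genes, picked by rank, had densities within the range of the peaks at histone starts. Those peaks had median densities of 3.27 in technical replicate 7 and 2.03 in technical replicate 1. By mean rank the first was chr13:21974228-21974463, 569 bp from the nearest tRNA gene (tRNA-Met) and over 1 kb from an annotated start, with densities of 2.72 in technical replicate 7 and 3.90 in technical replicate 1. Next came chr13:21940319-21940600 at a tRNA-Asp gene, with 3.59 and 3.45. The third, chr13:22028749-22029007, lay 216 bp from a tRNA-Ile gene and over 1 kb from a start, and had 3.84 and 3.27. The peaks chr13:22026421-22026657 at a tRNA-Val gene, with 2.86 and 3.59, and chr13:21936995-21937376 at a tRNA-Ser gene, with 2.29 and 3.73, completed the first 5. The second Hist1 block, though longer, had 19 peaks over 1 kb from any member start in technical replicate 7 and 1 in technical replicate 1. Only 1 was shared by the libraries, the peak at Hist1h1d. Some of the 19 lay inside annotated members such as Hist1h2be. The transporter genes Slc17a1, Slc17a2 and Slc17a3, the iron regulator Hfe and Trim38 in that block had no peak within 1 kb of a start in either library.

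Genes that act on histone genes, and other genes of S phase, had peaks without exception. All 18 histone gene expression factors (such as Npat, Slbp and the NF-Y subunits) had a peak in both libraries, where 59.4% of protein-coding genes did, with mean ranks from 86.9 at Eri1 to 99.6 at Nfya. All 20 S phase genes had one too, from 78.9 at Pola1 to 98.99 at E2f1. Of 14 genes listed as replication-independent histone genes, 11 had a peak in both, from 62.9 at H2afy2 to 99.1 at H2afv. The 3 without were H1foo, H1fnt and H2afb1, known from germ cells. In technical replicates 7 and 1 the replication-independent genes with a peak had median ranks of 94.1 and 96.0, beside 93.1 and 74.1 for the replication-dependent genes. These are descriptions of fixed lists, with no test.

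The liver label was checked on marker genes. Peaks within 1 kb of a start were listed for 5 of 6 hepatoblast markers in technical replicate 7 and 2 in technical replicate 1, for 4 of 5 erythroid markers in each, and for 3 and 2 of 5 markers of other tissues, against 65.3% and 59.9% of protein-coding genes. Alb and Hbb-y had none. Among erythroid markers, Gata1 had densities of 0.697 and 0.828, Klf1 1.15 and 1.12, Epor 4.70 and 3.08 and Tfrc 6.68 and 5.53. Among hepatoblast markers, Cebpa had 2.98 and 2.82 and Foxa2 0.645 and 1.17. Hnf4a with 0.717, Afp with 0.569 and Dlk1 with 0.869 had a peak in technical replicate 7 alone. Among markers of other tissues, Krt10, a marker of skin, had 1.92 and 2.42, and Myod1 had 0.685 and 0.646. Neurod1 had 0.373 in technical replicate 7 alone, and Pdx1 and Cdx2 had no peak. With so few genes, the counts did not set the hepatoblast or the erythroid markers apart from those of other tissues. The lists held 86036 and 42422 peaks, 127152 and 50432 hotspots, and 107626 and 219621 footprints in technical replicates 7 and 1.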

How the data were processed

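The authors deposited peaks, hotspots and footprints for each of the 2 libraries, on mm10 per the labels. No aligner or caller is named in the sources used here. In the deposited peak lists the signal is a density of DNase cuts per peak. In the deposited hotspots the value is a −log10 false discovery rate. The deposited footprints of technical replicate 1 carry a constant of 0.01, read as a p-value threshold, and those of technical replicate 7 are intervals only. Of the paired lists the shorter was used. Genes are GENCODE vM21 basic, and promoters, tRNA genes and RefSeq starts are from GRCm38.p6. Overlap needed 1 bp; the overlap code was tested on simulated data. Intervals are exact Clopper-Pearson 95%. Analysis used Python 3.11.15 with numpy 2.4.6, pandas 2.3.3 and scipy 1.17.1. The set and lists were chosen with earlier results of these data known. Named genes were the 3 of each type with the highest mean rank over both libraries, the genes with no peak, and the peaks between genes with the 5 highest mean ranks, beside some picked by name. Windows, lists and libraries were varied; RefSeq starts, unique promoters and the other processing were added after seeing the data.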

Additional observations from a re-analysis of the deposited data

Results flagged for a closer look

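A signal outside the main lists was found in the other processing of technical replicate 1. Of the 22 members with no peak of that library in the list used, 10 had a peak within 1 kb in the list of the other processing, at ranks from 45.2 to 80.6 of that list, with a median of 77.4. All 10 belong to the second Hist1 block. Over protein-coding genes, that list in place of the one used took the share with a peak in both libraries from 59.4% to 60.9%. No further explanation was tested.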

How the results depend on the processing

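The data are 1 biological sample, so no value here carries the spread between animals. Technical replicate 1 has density steps 2.52 times larger, and an absence from its list shows only that no peak was listed. Of 38 alternatives over the reported counts, 36 stayed within 1.5 times the main count. The number of genes with a peak in both libraries, 47, ranged from 35, where a peak counted only for the gene with the nearest start, to 60 with technical replicate 7 alone; leaving out a library gave 48 to 60. Under the nearest-start rule 11964 of 21938 protein-coding genes had a peak in both libraries, a larger share than 35 of 70. The protein-coding background, 13036, ranged from 10839 to 14335, and leaving out a library gave 13131 to 14335. The 27 shared peaks between genes became 42 with the longer lists, and 28 to 72 where a single library was used. The cause was not tested. No paired analysis was possible because both libraries belong to 1 group.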
